A study of Mus musculus with 30 samples.

Results

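Mitochondrial ribosomal protein genes were examined in AML12 cells, a mouse hepatocyte line, after knockdown of the forkhead transcription factors FoxK1 and FoxK2 and after insulin stimulation. The genes were the protein-coding genes whose symbol begins with Mrpl or Mrps followed by a digit, found by mapping each Ensembl identifier, without its version, to its mouse symbol. This gave 78 genes of the 49089 in the count tables, 49 named Mrpl and 29 named Mrps. RNA-seq was performed on 30 samples in 8 groups. Cells carried transient siRNA against FoxK1 (FoxK1 KD), FoxK2 (FoxK2 KD) or both together (DKD), or a control siRNA (Control), and all had been deprived of serum overnight. Each was analysed without insulin (basal, given a time of 0 h in the labels) and after 100 nM insulin for 6 h. There were 4 replicates per group, except Control and DKD cells after insulin with 3 each. The knockdowns were partial and transient, and all groups were of a single cell line. The labels do not say whether the replicates were separate cultures, so p-values measure the spread between these samples, which may be technical.

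Mitochondria keep their own ribosome, which translates the few mRNAs of the mitochondrial genome, all of them for subunits of the respiratory chain and ATP synthase. Its rRNAs are transcribed inside the organelle, whereas its proteins are encoded in the nucleus, made in the cytosol and imported, so that the ribosome depends on both genomes. Some of the proteins descend from bacterial ribosomal proteins, and others were added in the mitochondrial lineage. In hepatocytes this machinery supplies the oxidative phosphorylation on which fatty acid oxidation and gluconeogenesis draw.

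By the standing nomenclature, 51 of the 78 genes encode large-subunit proteins and 26 small-subunit proteins. Mrps18a and Mrps30 were counted with the large subunit, where their proteins lie in spite of their names. Mrps36, whose protein belongs to the 2-oxoglutarate dehydrogenase complex rather than to the mature ribosome, was placed in neither. A bacterial counterpart is known for 46, and 32 are particular to mitochondria. The genes lie on 17 chromosomes, with at most 11 on one of them (chromosome 11). Their exons span 607 to 8631 bases, with a median of 2394.0. In GENCODE M21 (GRCm38), 33 of the 78 share exon bases with another gene, and in 3 (Mrpl53, Mrps34 and Mrps25) over 50% of them are shared. No source gives the strand setting of the read counting, so reads of overlapping genes, such as the 77.8% of Mrps34 exon bases shared with Mapk8ip3 and Nme3, cannot be told apart.

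The promoters of Mrpl9, Mrpl49, Mrpl58 and Mrpl16 are shown because these genes passed the test most often, the first 3 in 4 comparisons each. Mrps24 passed in 3 comparisons as Mrpl16 did, and Mrpl16 was taken for its smaller adjusted p. Each runs from 250 bases before to 50 bases after the start of the gene, as given by RefSeq (GRCm38.p6), and reads 5′ to 3′ on the strand of the gene. Capitals mark matches to any of the motifs searched on both strands, which were TAAACA (the forkhead core), CCGGAAG (the core bound by ETS factors such as GABP), AAGATGGC (YY1) and the palindrome of 10 bases bound by NRF1, in capitals in the Mrpl9 window. The ETS and YY1 motifs can overlap by the letters AAG. The regions are chr3:94443086-94443385 (plus strand) for Mrpl9, chr19:6057706-6058005 (minus strand) for Mrpl49, chr11:115403502-115403801 (plus strand) for Mrpl58 and chr19:11770165-11770464 (plus strand) for Mrpl16.
Mrpl9: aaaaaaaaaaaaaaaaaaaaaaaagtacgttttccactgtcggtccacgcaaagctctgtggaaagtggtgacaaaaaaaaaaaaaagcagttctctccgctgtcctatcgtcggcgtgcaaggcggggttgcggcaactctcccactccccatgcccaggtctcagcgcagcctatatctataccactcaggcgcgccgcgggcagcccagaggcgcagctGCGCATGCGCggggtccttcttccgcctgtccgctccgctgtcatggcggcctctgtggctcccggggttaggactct
Mrpl49: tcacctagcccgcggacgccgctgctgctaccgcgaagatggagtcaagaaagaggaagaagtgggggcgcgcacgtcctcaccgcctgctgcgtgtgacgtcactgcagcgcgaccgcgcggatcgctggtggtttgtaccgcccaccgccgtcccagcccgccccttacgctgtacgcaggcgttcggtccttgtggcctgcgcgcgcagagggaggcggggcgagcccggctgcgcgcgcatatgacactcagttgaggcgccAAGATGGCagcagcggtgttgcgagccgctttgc
Mrpl58: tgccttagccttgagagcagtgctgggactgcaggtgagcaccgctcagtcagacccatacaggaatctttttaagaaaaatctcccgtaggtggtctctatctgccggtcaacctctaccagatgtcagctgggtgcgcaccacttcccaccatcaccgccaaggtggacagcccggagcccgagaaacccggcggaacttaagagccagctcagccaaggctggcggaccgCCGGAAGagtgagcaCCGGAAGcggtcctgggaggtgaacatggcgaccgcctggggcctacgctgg
Mrpl16: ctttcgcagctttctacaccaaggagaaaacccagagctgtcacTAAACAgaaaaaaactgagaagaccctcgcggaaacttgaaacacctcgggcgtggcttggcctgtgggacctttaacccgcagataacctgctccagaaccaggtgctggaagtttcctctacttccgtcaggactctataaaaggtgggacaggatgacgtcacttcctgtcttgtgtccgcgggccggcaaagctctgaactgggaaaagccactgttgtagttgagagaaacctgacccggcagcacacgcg

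The Mrpl9 window held an NRF1 motif, the Mrpl49 window a YY1 motif, the Mrpl58 window 2 ETS motifs and the Mrpl16 window a forkhead core. Promoter sequences were found for 69 of the 78 genes, 75 windows in all. The ETS core was in 26 of these 75 windows (34.7%), against 18.7% of the 11213 windows of all genes tested and 8.86% of all 32851 windows. The YY1 motif was in 12 windows (16.0%), against 4.70% and 2.75%. The NRF1 motif was in 3 (4%), against 2.22% and 0.971%. The forkhead core was in 4 (5.33%; Mrpl16, Mrpl40, Mrpl44 and Mrpl47), against 8.82% and 13.4%. These matches describe the letters of the windows and not the binding of any factor.

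The count tables held 2141460 to 5668270 reads a sample, and the 78 genes took 0.195% to 0.246% of them. The edgeR test covered 11368 genes. Foxk1 fell to 45.2% of the Control mean in FoxK1 KD cells and 57.1% in DKD cells at basal, and Foxk2 to 33.7% in FoxK2 KD cells and 35.8% in DKD cells. After insulin, Foxk1 was at 58.2% of the Control insulin mean in FoxK1 KD cells and 64.6% in DKD cells. Foxk2 was then at 40.4% in FoxK2 KD cells and 39.5% in DKD cells. The labels and the knockdowns thus went together, and the remaining percentages of Control were higher after insulin. For Foxk1 the Control mean itself went from 81.4 CPM at basal to 53.0 CPM after insulin. Its mean went from 36.8 to 30.9 CPM in FoxK1 KD cells and from 46.5 to 34.2 CPM in DKD cells. Foxk2 went from 140 to 163 CPM in Control cells and from 47.3 to 65.7 CPM in FoxK2 KD cells. Of the hepatocyte markers, Apob (median 591 CPM, counts scaled to the library size), Hnf4a (137 CPM), Krt8 (713 CPM) and Krt18 (1090 CPM) were well expressed. Ttr (36.0 CPM), Serpina1a (20.9 CPM), Trf (14.3 CPM) and Alb (6.77 CPM) were lower, and Apoa1 (0.371 CPM) and Apoc3 (0 CPM) nearly absent. The lists of markers of fibroblasts, endothelial cells and leukocytes each summed to at most 4.43 CPM in any sample. Of the cholangiocyte markers, the keratin Krt19 (median 471 CPM) and Sox9 (189 CPM) were high in all samples, Krt7 was lower (23.7 CPM) and Epcam had 0 counts. Libraries also divided along whole groups, and the reason was not tested. In every one of the 12 basal libraries of Control, FoxK1 KD and FoxK2 KD cells, 52 genes were lower and 83 higher than in all 18 others, which were the DKD basal and all insulin libraries. None of the 74 tested ribosomal protein genes was among these genes, which were 52 and 83 of all 11368 genes tested. At so small a share, few of 74 genes would be among them, so this does not show that the division spared them. DKD against Control at basal, and insulin against basal in Control, FoxK1 KD and FoxK2 KD cells, cross this division. So does the insulin effect in DKD cells minus that in Control cells, through its Control samples alone. The part of the division in these results cannot be told apart from that of the knockdown or insulin. The knockdowns compared after insulin, and insulin in DKD cells, lie on one side of the division. Control basal replicate 1 also stood apart from its own group, as its counts differed from those of the other 3 by a chi-square per degree of freedom of 15.7 to 22.1, where all other pairs of replicates had 1.75 to 6.41. It enters every comparison with Control basal samples, and without it FoxK1 KD at basal called 0 instead of 3 of the 74 genes, DKD at basal 8 instead of 7 and insulin in Control cells 11 instead of 7. In such bulk samples fewer cells and less RNA per cell cannot be told apart either.

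Of the 78 genes, 74 had enough counts to be tested. The other 4 were Mrps23 (0 counts in 30 samples), Mrpl53 (13), Mrps36 (65) and Mrpl23 (195). To compare genes with one another, levels were divided by the length of all annotated exons of the gene. This length joins the exons of every annotated transcript, whether or not it is expressed here, so the ranks are approximate. The level of the tested genes had a median of 8.87 CPM per kb over all samples. Mrpl43 (69.1 CPM per kb), a mitochondria-specific large-subunit protein, was highest, followed by Mrpl10 (63.4 CPM per kb), a protein of the stalk that contacts translation factors, and Mrpl49 (45.1 CPM per kb). At the lower end, Mrps10 (0.973 CPM per kb) and Mrpl48 (1.64 CPM per kb) were the lowest of those tested. Their annotated exons are long (8.079 and 8.152 kb). In CPM, Mrpl14 (2.62) was lower than Mrps10 (7.86) and Mrpl48 (13.3). Large-subunit genes (median 9.64 CPM per kb, 49 genes) and small-subunit genes (6.40 CPM per kb, 25 genes) overlapped widely, and the highest levels all belonged to the large subunit.

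**Figure D1:**
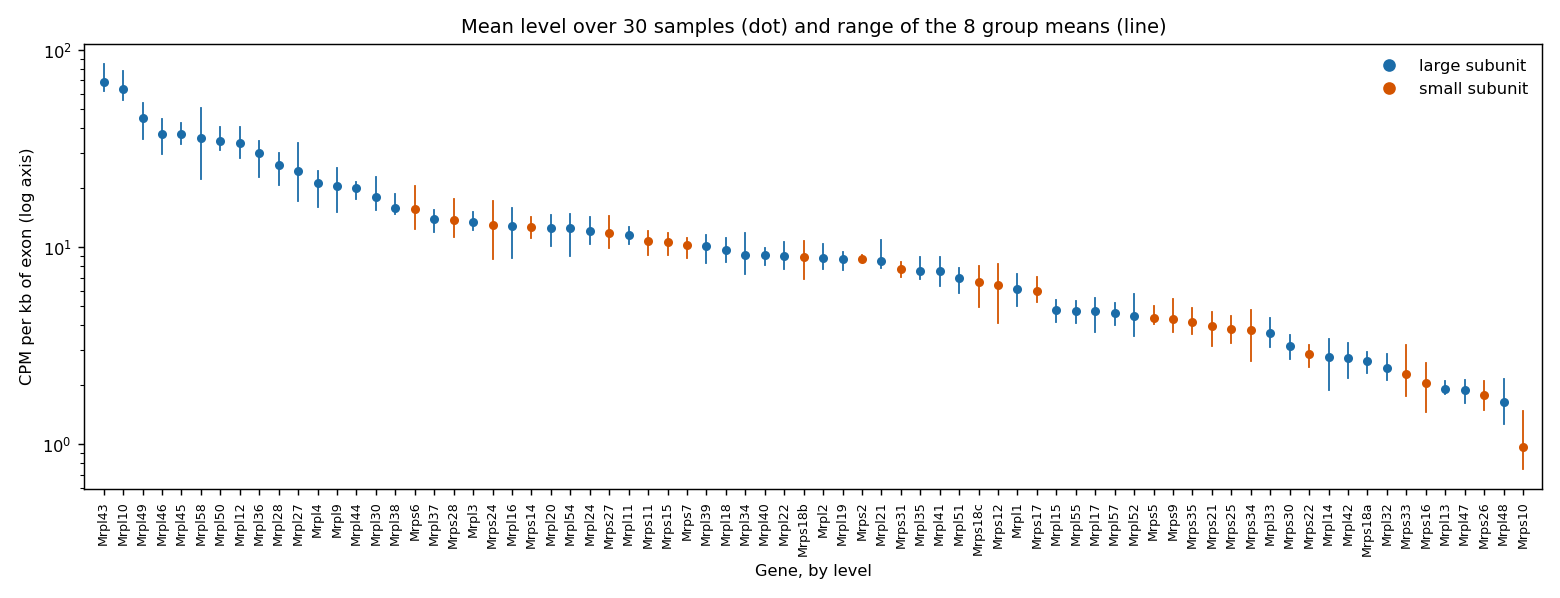
Level of the 74 tested genes in CPM per kb of exon (all annotated transcripts joined) on a log axis, ordered from high to low. Dots are the mean over 30 samples and lines the range of the 8 group means. Large-subunit genes in blue hold the highest ranks, from Mrpl43 at 69.1 CPM per kb, and most lines are short beside the spread between genes.

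Levels of the genes changed little between groups. The highest group mean was 1.39 times the lowest in the median gene, and it exceeded 1.5 times in 22 of 74 genes and 2 times in only Mrpl58 and Mrps12. On the log2 scale, the SD between the 8 group means had a median of 0.15 over the genes and the SD between replicates within groups 0.23, whereas over all genes tested these were 0.18 and 0.19. By these medians, single replicates of a ribosomal protein gene spread more within a group than the group means spread. The first SD is of means of 3 or 4 samples and the second of single samples. They therefore do not set group differences against the error of those means. Summed over the large-subunit genes, the level was 1787 ± 197 CPM (SD, n = 4) in Control cells at basal, 1612 ± 62.9 (n = 4) in FoxK1 KD cells, 1763 ± 67.1 (n = 4) in FoxK2 KD cells and 1757 ± 13.1 (n = 4) in DKD cells. After insulin it was 1835 ± 159 (n = 3), 1814 ± 97.2 (n = 4), 1808 ± 91.0 (n = 4) and 1843 ± 84.5 (n = 3), in the same order. The small-subunit sum lay between 441 ± 30.2 CPM (FoxK1 KD basal, n = 4) and 488 ± 18.6 CPM (FoxK1 KD insulin, n = 4). Control replicate 1 gave the highest large-subunit sum of its group both at basal (2058 CPM) and after insulin (2018 CPM). The ratio of the large-subunit sum to the small-subunit sum was between 3.37 and 4.12 in all samples.

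**Figure D2:**
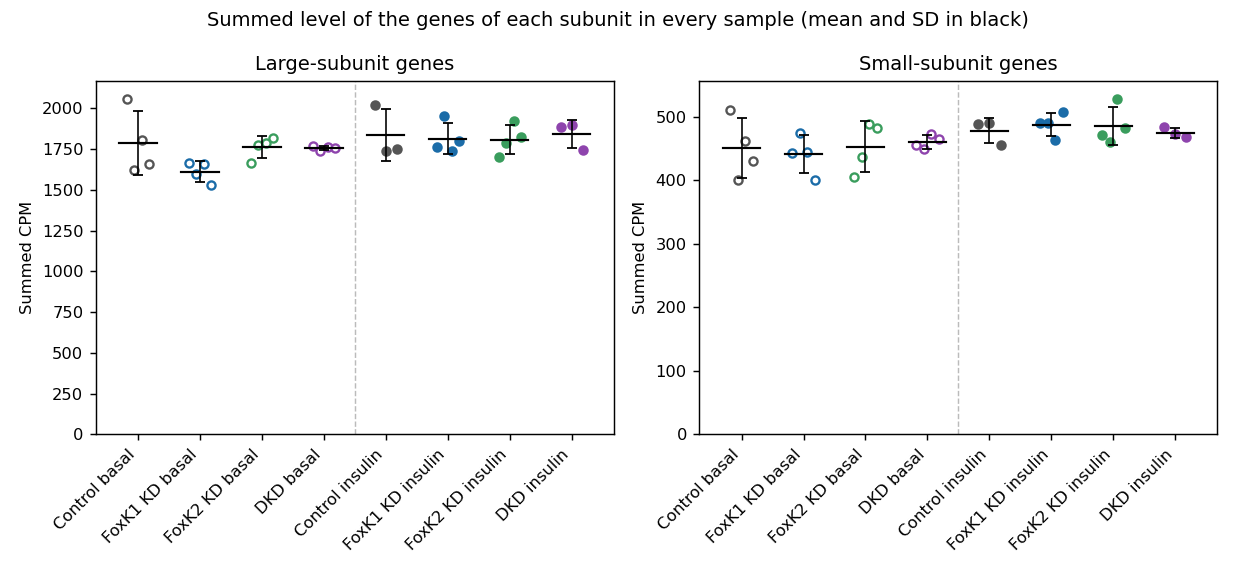
Summed CPM of large-subunit genes and of small-subunit genes in each of the 30 samples, by group, with open circles for basal and filled circles for insulin samples, and the mean and SD in black. For the large subunit the FoxK1 KD basal samples have the lowest group mean (1612 CPM, range 1529 to 1664) and overlap the Control basal samples, as most other groups do, and Control replicate 1 is the highest point of its group for the large subunit at basal (2058 CPM) and after insulin (2018 CPM).

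Mrpl9 fell after insulin in all 4 genotypes, the only ribosomal protein gene called in each of them. Its protein is the counterpart of bacterial L9, which projects from the large subunit. At basal it measured 82.5, 55.3, 70.0 and 56.6 CPM in Control cells, 58.6, 77.9, 68.0 and 58.9 with FoxK1 KD, 60.5, 63.8, 63.3 and 69.0 with FoxK2 KD and 68.6, 65.2, 68.9 and 69.3 in DKD cells. After insulin the values were 43.0, 43.0 and 36.8 CPM in Control cells, 44.0, 50.4, 38.9 and 36.0 with FoxK1 KD, 42.8, 39.9, 53.1 and 40.9 with FoxK2 KD and 42.4, 45.7 and 40.2 in DKD cells. Every insulin sample was below every basal sample, across all genotypes. The log2 fold changes were −0.68 ± 0.13 (SE; adjusted p = 0.000152, edgeR) in Control cells, −0.63 ± 0.12 (adjusted p = 0.000171) in FoxK1 KD cells, −0.54 ± 0.12 (adjusted p = 0.00061) in FoxK2 KD cells and −0.68 ± 0.13 (adjusted p = 0.000323) in DKD cells. In DKD cells, where both groups lie on the same side of the division among libraries, Mrpl9 fell by 37.4%, and in Control cells it fell by 37.6%. The call held without any single sample. The effect of insulin on Mrpl9 in DKD cells minus that in Control cells was 0.01, with a 95% interval from −0.35 to 0.36.

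Mrpl49, a mitochondria-specific protein of the large subunit, was called higher in 4 comparisons. It measured 71.7, 65.5, 81.4 and 56.6 CPM in Control cells at basal and 101, 97.98 and 104 CPM after insulin. With FoxK1 KD it went from 64.5, 61.1, 81.2 and 59.7 CPM to 96.0, 109.8, 82.1 and 91.3, and in FoxK2 KD cells from 71.3, 78.8, 76.3 and 77.4 CPM to 91.0, 97.9, 106 and 97.0. Basal and insulin samples did not overlap in these 3 genotypes. The log2 fold changes with insulin were 0.56 ± 0.11 (SE; adjusted p = 0.000358), 0.51 ± 0.11 (adjusted p = 0.000562) and 0.37 ± 0.11 (adjusted p = 0.00879). DKD cells at basal, with 93.0, 81.2, 72.2 and 88.8 CPM, were already above Control cells by 0.30 ± 0.11 (adjusted p = 0.0443), although 2 of their samples fell within the Control range. Insulin then took them to 81.7, 98.7 and 103 CPM, a log2 fold change of 0.17 ± 0.11 that did not pass (adjusted p = 0.353). The call in DKD cells at basal rests on samples near the threshold, since leaving out single samples gave adjusted p-values up to 0.194.

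Mrpl16, whose bacterial counterpart L16 lies beside the tRNA sites of the large subunit, had 40.5, 31.3, 37.7 and 26.6 CPM in Control cells at basal and 43.8, 45.2 and 54.1 CPM after insulin (log2 fold change 0.50 ± 0.12, adjusted p = 0.00286). With FoxK1 KD it rose from 30.3, 25.7, 30.3 and 25.7 CPM to 51.0, 51.9, 43.2 and 53.4, the largest rise of any of the 74 genes with insulin (0.83 ± 0.12, adjusted p = 3.32e-06). In FoxK2 KD cells it rose from 26.5, 39.1, 35.4 and 32.5 CPM to 45.4, 49.5, 51.0 and 43.2 (0.49 ± 0.11, adjusted p = 0.00144). The samples did not overlap in any of these comparisons, and each call held without any single sample. The call in Control cells was lost when edgeR was fitted to only the groups compared (adjusted p = 0.0696). In DKD cells 42.5, 41.0, 39.8 and 39.3 CPM at basal and 46.8, 45.7 and 45.1 CPM after insulin also did not overlap, but the log2 fold change of 0.17 ± 0.12 did not pass (adjusted p = 0.373). The larger rise in FoxK1 KD than in Control cells was not significant as a difference (0.33 ± 0.17, adjusted p = 0.412).

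Mrpl58 encodes a peptidyl-tRNA hydrolase that releases stalled ribosomes and is built into the large subunit. It measured 175, 109, 106 and 103 CPM in Control cells at basal, 94.8, 50.5, 65.6 and 82.4 with FoxK1 KD, 104, 81.0, 66.1 and 100.2 with FoxK2 KD and 78.7, 86.7, 96.2 and 135 in DKD cells. After insulin it had 269, 116 and 120.4 CPM in Control cells, 101, 148, 144 and 129 with FoxK1 KD, 106, 139, 123 and 163 with FoxK2 KD and 161, 200.4 and 122 in DKD cells. FoxK1 KD cells were below Control cells at basal without overlap. Replicate 1 of Control cells was the highest sample both at basal and after insulin. With insulin, Mrpl58 rose by 0.82 ± 0.23 (adjusted p = 0.0062) in FoxK1 KD cells, 0.60 ± 0.22 (adjusted p = 0.0407) in FoxK2 KD cells and 0.68 ± 0.24 (adjusted p = 0.0437) in DKD cells on the log2 scale. The difference in Control cells was 0.47 ± 0.23 (adjusted p = 0.135). The call in FoxK1 KD cells held without any single sample, while those in FoxK2 KD and DKD cells were lost without some of the samples (adjusted p up to 0.142 and 0.239). The latter 2 calls were also lost with DESeq2 (adjusted p = 0.0917 and 0.0921).

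Mrps24, the counterpart of the bacterial small-subunit protein S3 at the mRNA entry, had 11.3, 11.8, 17.4 and 13.6 CPM in Control cells at basal. In FoxK1 KD cells it went from 11.5, 9.57, 16.5 and 13.6 CPM to 24.0, 23.1, 20.7 and 20.04 with insulin, with no overlap (log2 fold change 0.76 ± 0.19, adjusted p = 0.00192). In Control cells it went to 17.4, 17.7 and 23.9 CPM (0.53 ± 0.19, adjusted p = 0.0398), with the lowest insulin sample just above the highest basal sample. DKD cells at basal had 17.2, 20.4, 21.7 and 18.2 CPM (0.50 ± 0.18 against Control, adjusted p = 0.0435), where one sample lay within the Control range. The latter 2 calls were lost on leaving out single samples, with adjusted p-values up to 0.237 and 0.111.

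**Figure D3:**
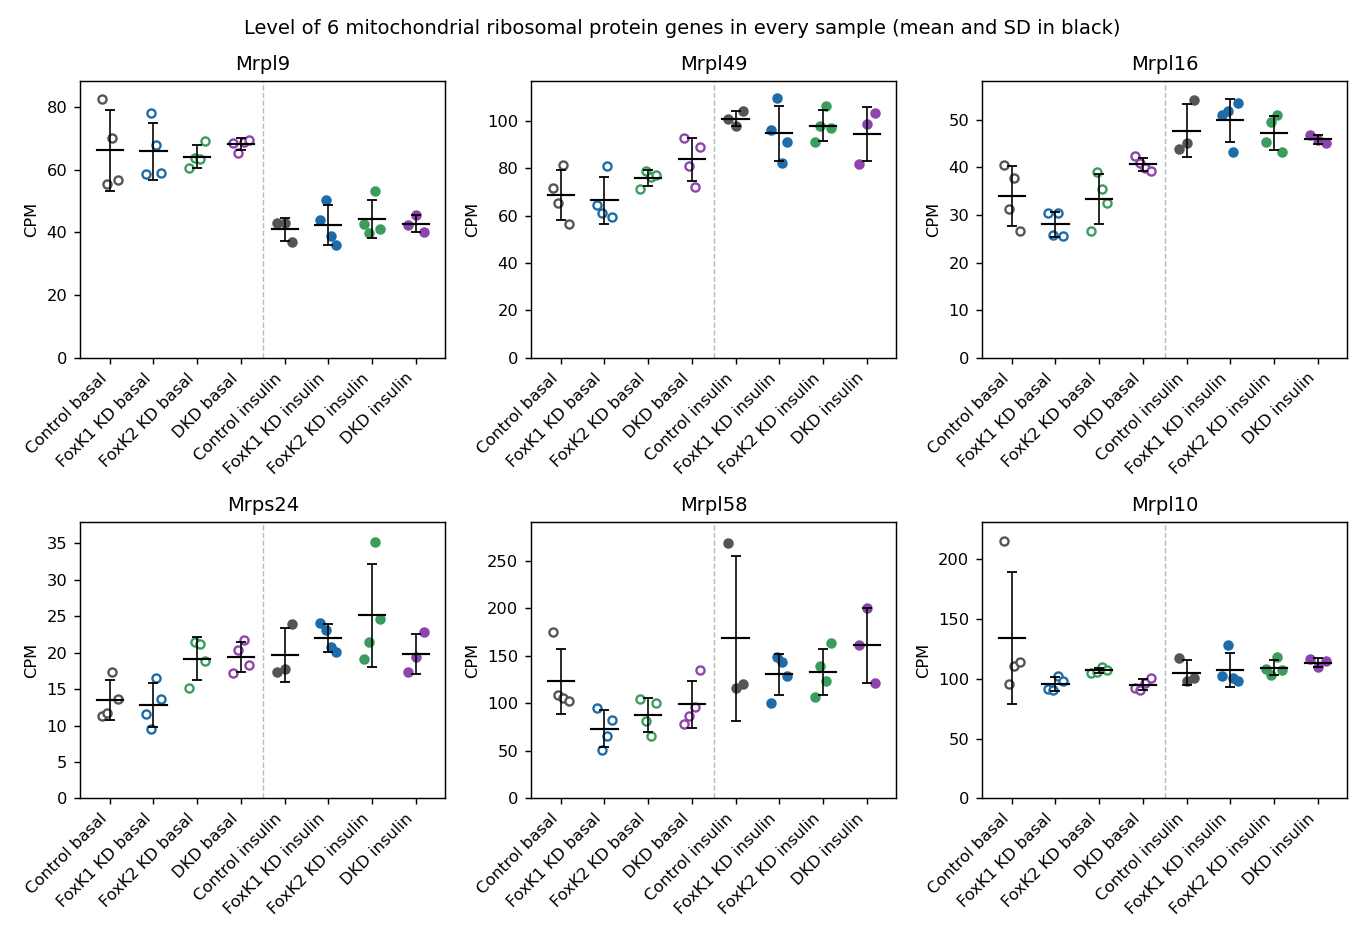
CPM of Mrpl9, Mrpl49, Mrpl16, Mrps24, Mrpl58 and Mrpl10 in each of the 30 samples, by group, with open circles for basal and filled circles for insulin samples, and the mean and SD in black. Mrpl9 lies lower in every insulin sample (36.0 to 53.1 CPM) than in every basal sample (55.3 to 82.5 CPM), and Control basal replicate 1 lies far above its group for Mrpl58 and Mrpl10.

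To ask whether loss of FoxK1 or FoxK2 changes the genes in unstimulated cells, each knockdown was compared with Control cells at basal. The 3 comparisons share the same Control samples. FoxK1 KD lowered 3 of 74 genes and raised none, where 8.09% of all genes tested were called (3.39% higher and 4.71% lower). The genes were Mrpl10 (log2 fold change −0.47 ± 0.14, adjusted p = 0.0295), Mrpl58 (−0.73 ± 0.22, adjusted p = 0.0394) and Mrps34 (−0.80 ± 0.25, adjusted p = 0.043), the last a mitochondria-specific small-subunit protein. Mrpl10 measured 215, 95.5, 110.2 and 114 CPM in Control cells and 91.2, 90.8, 102 and 98.2 in FoxK1 KD cells, and Mrps34 measured 17.01, 6.00, 9.43 and 7.32 CPM against 6.79, 4.62, 6.35 and 4.01. For both, Control replicate 1 was the highest sample and the lowest Control sample lay within the range of the knockdown. Without that replicate 0 of 74 genes were called, the log2 fold changes being −0.15 for Mrpl10, −0.51 for Mrpl58 and −0.44 for Mrps34. Without FoxK1 KD replicate 2 the count was also 0, and without FoxK1 KD replicate 4 it was 1. The samples of the groups did not overlap for 2 of the 74 genes, beside 9.98% of all genes. The median log2 fold change of the 74 genes was −0.07, beside −0.01 for all genes.

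FoxK2 KD changed 0 of 74 genes at basal, where 0.378% of all genes were called, and 6 of the 74 had an unadjusted p below 0.05. DESeq2 and limma-voom also called 0. The samples of the groups did not overlap for 0 of the 74 genes, beside 4.67% of all genes. Their median log2 fold change was 0.04, with values from −0.58 (Mrps34) to 0.51 (Mrps24). For 51 of the 74 genes the 95% interval lay within a 1.5-fold change in either direction, and for the others a difference of that size could not be detected or bounded at this depth.

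DKD raised 4 and lowered 3 of 74 genes at basal (9.46%), against 21.1% of all genes tested (10.3% higher and 10.8% lower). Samples did not overlap for 11 of the 74 genes, beside 18.4% of all genes. Besides Mrpl49 and Mrps24, the higher genes were Mrpl21 and Mrps12. Mrpl21, a large-subunit protein with a bacterial counterpart, measured 13.04, 15.8, 17.6 and 17.1 CPM in Control cells and 24.7, 18.3, 25.4 and 19.0 in DKD cells (log2 fold change 0.43 ± 0.16, adjusted p = 0.0456). Mrps12, the counterpart of the decoding-site protein S12, measured 3.69, 4.001, 4.96 and 4.46 CPM against 8.90, 9.02, 6.48 and 5.91 (0.82 ± 0.26, adjusted p = 0.0195). It is low enough to fall outside the rule for named genes and was named after its values were seen. The samples of both genes did not overlap. The lower genes were Mrpl10 (−0.48 ± 0.14, adjusted p = 0.0122), Mrpl50 (−0.38 ± 0.10, adjusted p = 0.0076) and Mrpl15 (−0.37 ± 0.11, adjusted p = 0.0122). Mrpl50, a mitochondria-specific protein, measured 95.5, 82.0, 86.8 and 79.1 CPM in Control cells and 64.6, 69.5, 56.9 and 70.9 in DKD cells, without overlap, and its call held without any single sample. Mrpl15 measured 55.0, 40.0, 42.9 and 44.5 CPM against 33.6, 39.6, 38.9 and 30.04, where the closest samples were 39.6 and 40.0. Mrpl10 lost its call without Control replicate 1 (log2 fold change −0.17, adjusted p = 0.139). Leaving out DKD replicate 1 left 3 genes called, all lower, and leaving out DKD replicate 2 left 4.

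Base composition moved with this comparison. Across all genes the log2 fold change in DKD cells correlated with GC content (Spearman's rho = 0.466 over 11346 genes, which share the same libraries), and across the 74 ribosomal protein genes rho was 0.338. The 4 higher genes had a GC content of 49.4% to 56.5% and the 3 lower ones 40.0% to 52.5%. With the trends in GC content and length taken out, 5 genes were called, and Mrpl10 kept its call (log2 fold change −0.59). Mrpl15 (−0.15, adjusted p = 0.477), Mrpl50 (−0.24, adjusted p = 0.106), Mrps24 (0.30, adjusted p = 0.280), Mrpl21 (0.29, adjusted p = 0.186) and Mrpl49 (0.26, adjusted p = 0.0815) then kept their direction but were not called.

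To ask what insulin does in each genotype, insulin samples were compared with basal samples. In Control cells 5 of 74 genes rose and 2 fell (9.46%), while 25.4% of all genes tested were called (12.4% higher and 13.1% lower). Under FoxK1 KD 14 rose and 7 fell (28.4%), against 31.6% of all genes (16.2% higher and 15.4% lower). Under FoxK2 KD 5 rose and 4 fell (12.2%), against 28.1% (14.4% higher and 13.7% lower). In DKD cells 3 rose and 2 fell (6.76%), against 16.3% (8.31% higher and 7.99% lower). The median log2 fold change of the 74 genes was 0.05, 0.17, 0.04 and 0.05, beside medians of all genes between −0.01 and 0.01. The share of ribosomal protein genes called was below that of all genes in each genotype, and their standard errors were larger (medians of 0.16 to 0.18 on the log2 scale against 0.13 to 0.14). Insulin and basal samples did not overlap for 12, 18, 9 and 15 of the 74 genes in the 4 genotypes in that order, where this held for 25%, 31.9%, 30% and 28.7% of all genes.

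In Control cells the rises besides Mrpl49, Mrpl16 and Mrps24 were in Mrpl27 (log2 fold change 0.56 ± 0.19, adjusted p = 0.0295), a large-subunit protein close to the peptidyl transferase centre, and Mrpl28 (0.40 ± 0.13, adjusted p = 0.017). Mrpl27 had 13.3, 20.3, 18.9 and 18.4 CPM at basal and 34.8, 23.1 and 20.4 CPM after insulin, so that the nearest samples differed by little, and adjusted p reached 0.385 on leaving out single samples. Besides Mrpl9, Mrpl1 fell, a protein of the stalk at the tRNA exit. It measured 24.95, 31.8, 29.5 and 33.2 CPM at basal and 21.4, 22.8 and 22.3 CPM after insulin, without overlap (−0.44 ± 0.13, adjusted p = 0.0109). Without Control basal replicate 1 the count in Control cells went from 7 to 11, of which 9 rose.

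Among FoxK1 KD cells, 8 of the 14 genes that rose and 4 of the 7 that fell were of the large subunit. The rises with the largest change were Mrpl16, Mrpl58, Mrpl27 and Mrps34, followed, outside the rule for named genes in part, by Mrps12, Mrps24, Mrps6, Mrps10, Mrpl4, Mrpl54, Mrps18b, Mrpl49, Mrpl43 and Mrpl28. Mrpl27 went from 19.0, 22.1, 12.7 and 13.9 CPM to 27.7, 26.1, 33.9 and 28.6 (0.79 ± 0.19, adjusted p = 0.00159), without overlap. Mrps34 rose by 0.79 ± 0.27 (adjusted p = 0.0256) from 5.44 ± 1.34 to 9.60 ± 2.53 CPM (SD, n = 4 each), with overlap. Mrpl43, the gene with the highest level per kb, went from 96.2, 107, 91.7 and 83.5 CPM to 126, 145, 126 and 117 (0.45 ± 0.10, adjusted p = 0.000694), without overlap. Its exons share 33.4% of their bases with Twnk, the mitochondrial DNA helicase gene on the other strand. Besides Mrpl9, the genes that fell were Mrpl1 (−0.53 ± 0.13, adjusted p = 0.00144), Mrps33, Mrpl39 (−0.40 ± 0.15, adjusted p = 0.0382), Mrps9 (−0.39 ± 0.15, adjusted p = 0.0445), Mrpl46 and Mrps35 (−0.35 ± 0.13, adjusted p = 0.0336). The number called was between 14 and 21 on leaving out single samples, being lowest without FoxK1 KD basal replicate 2. The call of Mrps34 was kept in 4 of these 8 cases (adjusted p up to 0.126), as was that of Mrps35 (up to 0.106), while Mrps9 kept it in 3 (up to 0.145) and Mrpl39 in 2 (up to 0.105).

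In FoxK2 KD cells the rises besides Mrpl16, Mrpl49 and Mrpl58 were in Mrps11 (0.40 ± 0.15, adjusted p = 0.0381) and Mrps17 (0.29 ± 0.10, adjusted p = 0.0254), both small-subunit proteins with bacterial counterparts. The falls besides Mrpl9 were in Mrpl30 (−0.50 ± 0.19, adjusted p = 0.0402), Mrps35 (−0.42 ± 0.12, adjusted p = 0.00764) and Mrps30 (−0.40 ± 0.13, adjusted p = 0.0211). Mrps35, a mitochondria-specific small-subunit protein, went from 33.3, 44.0, 42.4 and 49.7 CPM to 29.3, 28.1, 35.5 and 35.0, and only its lowest basal sample overlapped the insulin samples. Mrps30 went from 23.5, 24.5, 22.5 and 24.8 CPM to 18.5, 16.8, 20.3 and 16.4, without overlap. Mrpl30 had 66.7, 67.8, 80.6 and 78.2 CPM at basal and 38.1, 40.4, 72.5 and 58.9 CPM after insulin, a wide spread that overlapped. Leaving out each of the 8 samples in turn kept the call of Mrps35 in all 8 cases, of Mrps30 in 5 (adjusted p up to 0.0612), of Mrpl30 in 4 (up to 0.185) and of Mrps11 in 1 (up to 0.0954), that without FoxK2 KD basal replicate 3.

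In DKD cells the genes called besides Mrpl9 and Mrpl58 were Mrpl20 (0.49 ± 0.16, adjusted p = 0.0328), Mrpl33 (0.47 ± 0.14, adjusted p = 0.0209) and Mrpl24 (−0.44 ± 0.15, adjusted p = 0.0419), all large-subunit proteins with bacterial counterparts. Mrpl20 went from 19.2, 14.3, 16.2 and 17.97 CPM to 24.1, 26.3 and 21.9, and Mrpl33 from 23.5, 25.01, 23.1 and 20.3 CPM to 35.1, 32.5 and 27.9, both without overlap. Mrpl24 went from 41.6, 34.3, 26.8 and 25.7 CPM to 22.4, 26.7 and 22.99, with overlap. The count was 1 without DKD insulin replicate 1, 2 without DKD insulin replicate 2 and 3 without any of DKD basal replicates 1, 2 and 3. Mrpl9 was the gene left without DKD insulin replicate 1, as its call held in each of these cases. Over the 7 samples left out in turn, Mrpl33 kept its call in 4 cases and Mrpl20 and Mrpl24 in 3 each (adjusted p up to 0.227).

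**Figure D4:**
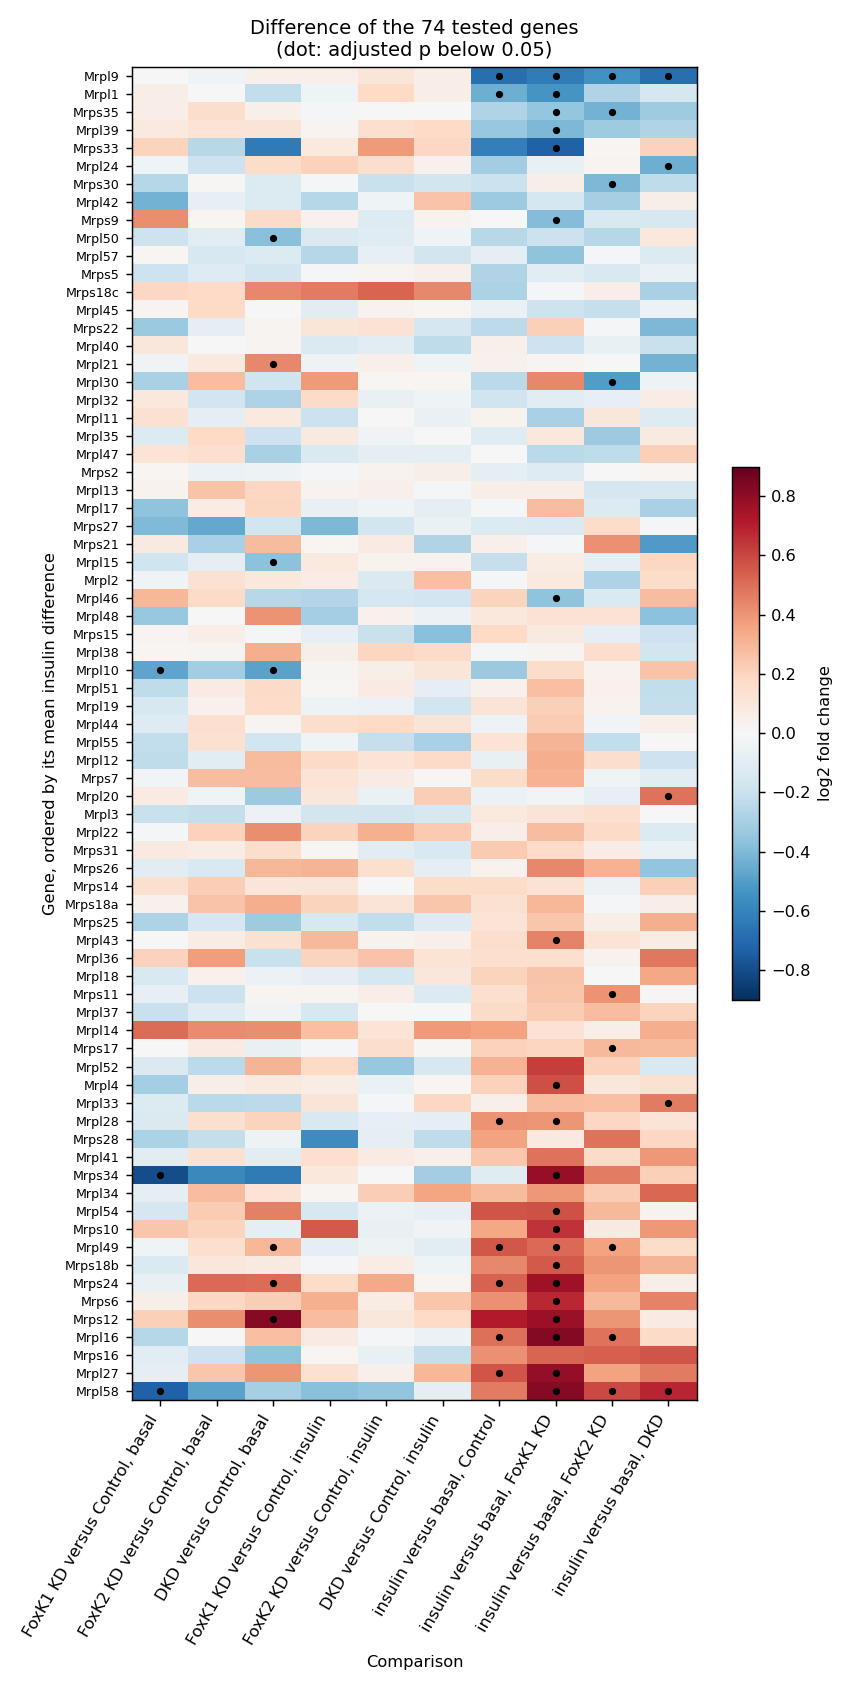
Log2 fold change of the 74 tested genes (rows, ordered by their mean difference with insulin) in 10 comparisons (columns), with red for higher and blue for lower and a black dot where the adjusted p was below 0.05. Mrpl9 at the top is blue in all 4 insulin columns, the 3 columns of knockdowns after insulin hold no dot, and the column of insulin in FoxK1 KD cells holds 21.

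To ask whether the knockdowns change the genes in stimulated cells, each was compared with Control cells after insulin. None of the 74 genes was called in FoxK1 KD, FoxK2 KD or DKD cells, where 3.59%, 0.0264% and 1.21% of all genes tested were called. An unadjusted p below 0.05 was found for 3, 0 and 0 of the 74 genes, and DESeq2 and limma-voom called 0 in each. Samples did not overlap with those of Control cells for 5, 1 and 4 of the 74 genes, beside 16%, 7.27% and 17.2% of all genes. The smallest adjusted p-values were 0.124, 0.887 and 0.421. The largest differences on the log2 scale were −0.56 (Mrps28) and 0.55 (Mrps10) in FoxK1 KD cells, −0.35 (Mrpl58) and 0.52 (Mrps18c) in FoxK2 KD cells, and −0.38 (Mrps15) and 0.43 (Mrps18c) in DKD cells. The 95% interval lay within a 1.5-fold change for 52, 59 and 54 of the 74 genes. Mrpl9 after insulin differed from Control cells by 0.05 ± 0.14, 0.11 ± 0.13 and 0.05 ± 0.14 on the log2 scale (SE).

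Finally, to ask whether a knockdown alters the response to insulin, the effect of insulin in each knockdown was set against that in Control cells. None of the 74 genes was called in FoxK1 KD, FoxK2 KD or DKD cells with edgeR, DESeq2 or limma-voom, where edgeR called 0%, 0% and 1.54% of all genes. The difference for DKD cells crosses the division among libraries, whose part in it cannot be told apart. An unadjusted p below 0.05 was found for 5, 0 and 6 genes. The lowest in FoxK1 KD cells was that of Mrpl46 (−0.56 ± 0.18, adjusted p = 0.211), a mitochondria-specific large-subunit protein, and in DKD cells that of Mrpl10 (0.59 ± 0.21, adjusted p = 0.16). The standard errors of these differences had a median of 0.24 to 0.25 on the log2 scale, and the 95% interval lay within a 1.5-fold change for only 25, 31 and 20 of the 74 genes, so that many differences of that size were not detectable at this depth. The larger number of genes called with insulin in FoxK1 KD cells (21) than in Control cells (7) was therefore not accompanied by any gene with a significant difference in its response.

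**Figure D5:**
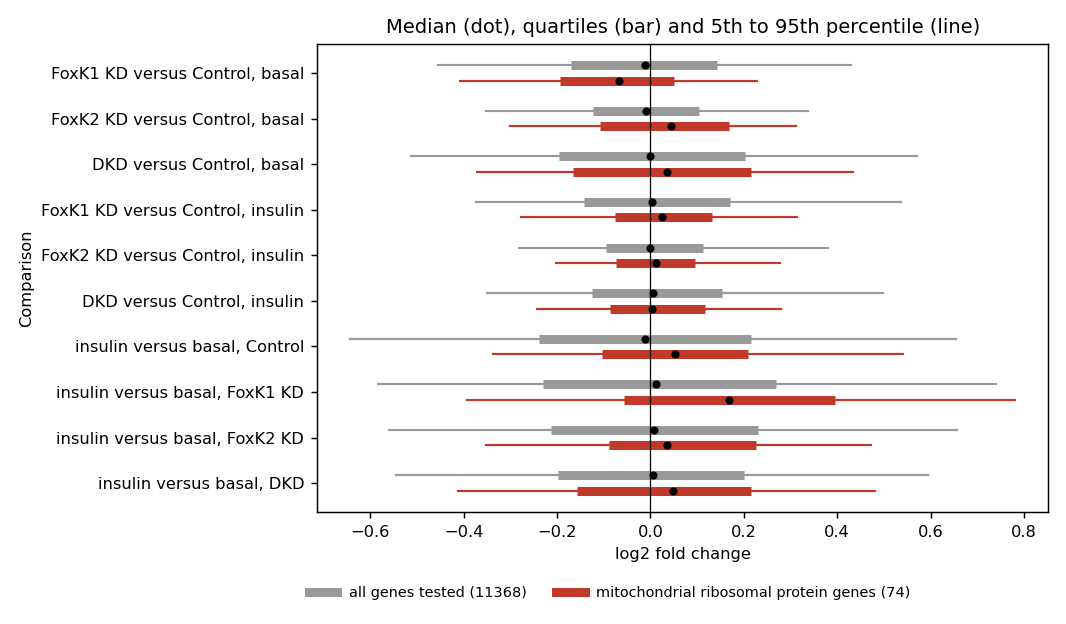
Median (dot), quartiles (bar) and 5th to 95th percentile (line) of the log2 fold change over all 11368 genes tested (grey) and the 74 mitochondrial ribosomal protein genes (red) in 10 comparisons. The red medians lie between −0.07 (FoxK1 KD at basal) and 0.17 (insulin in FoxK1 KD cells), and the red lines are mostly shorter than the grey ones.

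At an adjusted p below 0.25, with no minimum fold change, FoxK1 KD, FoxK2 KD and DKD at basal called 13, 1 and 24 of the 74 genes, where 26.6%, 3.59% and 43.6% of all genes were called. After insulin the knockdowns called 3, 0 and 0, where 15.1%, 0.238% and 6.66% of all genes were called. Insulin itself called 22, 41, 25 and 19 of the 74 genes (Control first, DKD last), beside 46.6%, 54%, 49.5% and 37.3% of all genes. The difference in the insulin effect called 1, 0 and 4, beside 3.4%, 0% and 9.88%.

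Over the 10 comparisons of 2 groups, 42 of the 74 genes were called in none, 20 in 1, 7 in 2, 2 in 3 and 3 in 4. The same count was not made over all genes, so it shows no trait of this family. By subunit, insulin in Control cells raised 4 and lowered 2 of 49 large-subunit genes and raised 1 of 25 small-subunit genes (12.2% and 4%, beside 25.4% of all genes). In FoxK1 KD cells it raised 8 and lowered 4 against 6 raised and 3 lowered (24.5% and 36%, beside 31.6%). Medians of the large and small subunit were 0.04 and 0.15 in Control cells and 0.15 and 0.20 in FoxK1 KD cells on the log2 scale. Of 45 genes with a bacterial counterpart, 6 were called with insulin in Control cells, as was 1 of 29 mitochondria-specific genes, and in FoxK1 KD cells the numbers were 11 and 10. These are 13.3% and 3.45% in Control cells, beside 25.4% of all genes, and 24.4% and 34.5% with FoxK1 KD, beside 31.6%. The difference between the classes was not tested. Genes with more GC tended to be higher after insulin among the 74 genes (rho = 0.443 in Control, 0.392 in FoxK1 KD, 0.436 in FoxK2 KD and 0.140 in DKD cells), while over all genes rho was 0.076, 0.326, 0.241 and −0.211. With the trends in GC content and length taken out, some named genes lost their insulin call. These were Mrpl27 and Mrps24 in Control cells, Mrps34, Mrps35 and Mrps9 in FoxK1 KD cells, and Mrpl30, Mrps30 and Mrps11 in FoxK2 KD cells. The insulin calls of Mrpl9, Mrpl16, Mrpl49 and Mrpl58 were kept under this setting.

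Many of the genes start next to another gene. For 33 of the 78 the start of a protein-coding gene on the other strand lies within 1000 bases. Mrpl46 and Mrps11, whose starts are 412 bases apart, form the only such pair within the family. Insulin lowered Mrpl46 in FoxK1 KD cells (−0.36 ± 0.12, adjusted p = 0.0231), where Mrps11 had 0.25 ± 0.16 (adjusted p = 0.219), and raised Mrps11 in FoxK2 KD cells. Mrpl49 starts 59 bases from Fau, which encodes a cytosolic ribosomal protein. Fau was called in none of the comparisons, with −0.13 ± 0.15 for insulin in Control cells where Mrpl49 rose. Mrps12 starts 172 bases from Sars2, the mitochondrial seryl-tRNA synthetase. In FoxK1 KD cells insulin raised both, Mrps12 by 0.78 ± 0.26 (adjusted p = 0.0199) and Sars2 by 0.83 ± 0.17 (adjusted p = 0.000257).

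The other components of mitochondrial translation were described from lists of known genes. Of 13 translation factors, insulin raised Gfm1, the elongation factor that moves the ribosome along the mRNA, in every genotype, by 0.46 to 0.61 on the log2 scale (adjusted p = 0.000692 at most). It lowered Mrrf, which recycles the ribosome after termination, in every genotype, by −0.33 to −0.57 (adjusted p = 0.0322 at most). These 2 were the only factors called in Control, FoxK1 KD or DKD cells after insulin, and Tsfm and Gfm2 also rose in FoxK2 KD cells. In Control and in FoxK1 KD cells they were 15.4% of the factors, beside 25.4% and 31.6% of all genes. Of all genes, 28.1% were called with insulin in FoxK2 KD cells and 16.3% in DKD cells. At basal no factor was called with FoxK1 KD or FoxK2 KD, beside 8.09% and 0.378% of all genes. DKD cells had Taco1 higher (0.35 ± 0.12, adjusted p = 0.0387) and Guf1 lower (−0.38 ± 0.10, adjusted p = 0.00703), 15.4% of the factors beside 21.1% of all genes.

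Of 22 genes for mitochondrial aminoacyl-tRNA synthesis, 6 rose and 0 fell with insulin in Control cells (27.3%), beside 25.4% of all genes. With FoxK1 KD 5 rose and 2 fell (31.8% beside 31.6%), in FoxK2 KD cells 7 rose and 2 fell, and in DKD cells 5 rose and 0 fell. Of all genes, 28.1% were called in FoxK2 KD cells and 16.3% in DKD cells. Qrsl1, a subunit of the amidotransferase that makes glutaminyl-tRNA, rose by 0.68 to 0.93 (adjusted p = 0.00206 at most), Nars2 by 0.41 to 0.66 and Gars by 0.56 to 0.72 in the 4 genotypes. Gars serves the cytosol as well as mitochondria. Of 25 genes for assembly of the ribosome and modification of its rRNA, 3 rose and 1 fell with insulin in Control cells (16%, beside 25.4% of all genes), 7 rose and 0 fell with FoxK1 KD (28% beside 31.6%), and 2 rose and 2 fell under both FoxK2 KD (16% beside 28.1%) and DKD (16% beside 16.3%). Mterf3 rose in every genotype, by 0.50 to 0.88 (adjusted p = 0.0271 at most). In DKD cells at basal 5 rose and 0 fell (20% beside 21.1%), led by Rbfa (0.68 ± 0.17, adjusted p = 0.00445), a factor in small-subunit maturation, which fell there with insulin (−0.73 ± 0.19, adjusted p = 0.00742). At basal with FoxK1 KD Mrm2, an rRNA methyltransferase, fell by 0.94 (adjusted p = 0.00878).

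A further 6 genes with other names, whose proteins belong to the ribosome or bind it, were tested. Gadd45gip1, a large-subunit protein, rose with insulin in Control cells (0.79 ± 0.29, adjusted p = 0.044). Oxa1l, which inserts the nascent chains into the inner membrane, fell with insulin in Control (−0.48 ± 0.11, adjusted p = 0.00184), FoxK2 KD and DKD cells and was lower in FoxK1 KD cells at basal (−0.37 ± 0.10, adjusted p = 0.0214). Ptcd3 fell in DKD cells at basal (−0.33 ± 0.08) and rose there with insulin (0.34 ± 0.09). Of 23 genes for transcription, RNA processing and maintenance of mitochondrial DNA, 4 rose and 3 fell in DKD cells at basal (30.4%, beside 21.1% of all genes). Tfam, which packages mitochondrial DNA and starts its transcription, rose by 0.47 ± 0.12 (adjusted p = 0.00361) and Pnpt1 fell by 0.53 on the log2 scale. With insulin 1 rose and 3 fell in Control cells (17.4% beside 25.4%), 2 rose and 1 fell both with FoxK1 KD and in DKD cells, and 2 rose and 2 fell under FoxK2 KD. Tbrg4, an RNA-binding protein of mitochondria, rose in every genotype, by 0.29 to 0.79. Twnk fell in Control (−0.59 ± 0.09, adjusted p = 1.31e-05), FoxK2 KD (−0.54) and DKD (−0.45) cells. Grsf1, which binds mitochondrial RNA, fell in Control (−0.53), FoxK1 KD (−0.46) and FoxK2 KD (−0.37) cells, and its insulin effect differed between DKD and Control cells (0.45 ± 0.11, adjusted p = 0.0337). That difference crosses the division among libraries, whose part in it cannot be told apart.

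Transcripts of the mitochondrial genome, which include the rRNAs of the same ribosome, were also counted. Of 13 tested, 3 were higher and 9 lower in DKD cells at basal (92.3%, beside 21.1% of all genes), with a median log2 fold change of −0.64. The 3 that were higher had low counts. Their mean log2 CPM was 2.89 for mt-Co2 (1.2 ± 0.40), 2.60 for mt-Co3 (1.55 ± 0.43) and 1.99 for mt-Atp6 (1.09 ± 0.37). The 9 that were lower had 7.70 to 11.93. Whether the low counts follow the levels of these 3 transcripts was not tested. The 12S rRNA mt-Rnr1 of the small subunit fell by 1.12 (adjusted p = 0.00012) and the 16S rRNA mt-Rnr2 of the large subunit by 0.76 (adjusted p = 0.00705), and insulin raised them in DKD cells by 0.74 and 0.77. The RNA was poly(A)-selected, and whether these counts follow the amounts of the rRNAs was not tested. Insulin lowered 6 of 13 and raised none in Control and in FoxK1 KD cells (46.2% in each, beside 25.4% and 31.6% of all genes). The log2 fold changes there were −1.02 and −0.67 for mt-Nd6 and −0.82 and −0.71 for mt-Nd4. Insulin raised 1 and lowered 7 in FoxK2 KD cells and raised 2 and lowered none in DKD cells (beside 28.1% and 16.3%). The effect in DKD minus that in Control cells was significant for mt-Rnr1, mt-Nd5 and mt-Nd6 (1.24, 0.76 and 0.98), unlike for any of the 74 protein genes. This difference crosses the division among libraries, as do DKD at basal and insulin in Control, FoxK1 KD and FoxK2 KD cells. The part of the division in these results cannot be told apart from that of the knockdown or insulin.

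Other nuclear gene families were set beside the 74 genes as a comparison. Of 79 cytosolic ribosomal protein genes, insulin raised 2 and lowered 15 in Control cells, raised 0 and lowered 16 in FoxK2 KD cells and raised 0 and lowered 15 in DKD cells, with medians of −0.19, −0.18 and −0.22 on the log2 scale, where those of the mitochondrial family were 0.05, 0.04 and 0.05. The cytosolic genes called were 21.5%, 20.3% and 18.99% of those tested, beside 25.4%, 28.1% and 16.3% of all genes. Under FoxK1 KD the cytosolic genes had 5 raised and 6 lowered (13.9% beside 31.6%) and a median of 0.03. Of 34 subunits of complex I, insulin raised 4 and lowered 1 in Control cells (14.7% beside 25.4% of all genes, median −0.02). In FoxK1 KD cells it raised 5 and lowered 1 (17.6% beside 31.6%, median 0.20). It raised 3 and lowered 3 of them under FoxK2 KD (median 0.01, beside 28.1% of all genes called). In DKD cells it raised 1 and lowered 0 (median 0.04, beside 16.3%). Among 11 regulators of mitochondrial biogenesis, 27.3% were called with insulin in Control cells, beside 25.4% of all genes. Pprc1 rose (0.48 ± 0.09, adjusted p = 0.000154), while Myc (−0.62 ± 0.12, adjusted p = 0.000223) and Gabpa (−0.34 ± 0.08, adjusted p = 0.00282), a subunit of the ETS factor GABP, fell. Pprc1 also rose under FoxK1 KD (0.40) and FoxK2 KD (0.39). Myc also fell in FoxK2 KD (−0.63) and DKD cells (−0.82). In FoxK1 KD cells Gabpa (−0.33) and Ppargc1a (−0.38) fell, and in DKD cells Gabpb1 rose (0.37).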

How the data were processed

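RNA-seq of poly(A)-selected RNA was performed on 30 samples. Per the labels, the authors called bases with CASAVA 1.8, aligned reads with STAR 2.4.2a to GRCm38.p4 and deposited raw read counts per gene made with featureCounts. Samples were assigned to groups by the sample labels, and no sample was left out. Each sample held 2141460 to 5668270 counts, so a gene at 1 CPM rests on few reads.

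Counts were tested with edgeR 4.0.16 (quasi-likelihood test, TMM scaling, filterByExpr) in R 4.3.3, in 1 model of 8 groups with 13 comparisons, and p-values were adjusted by Benjamini-Hochberg over all 11368 genes tested. A gene was called at an adjusted p below 0.05. CPM are counts scaled to the TMM-adjusted library size, and intervals are 95%. The study used 0.25, with a minimum fold change of 1.5 added for insulin. Alternatives were DESeq2 1.42.0, limma-voom (limma 3.58.1), other filters (at least 10 counts in every sample, or at least 1 in any), only the groups compared, a replicate block, GC content and length trends taken out, an adjusted p below 0.25 alone, and leaving out each sample. The script was tested on simulated data. Tables were handled in Python 3.11.15.

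The members and the gene lists were chosen with earlier results of these data known. Genes were named by a rule: per comparison up to 4 called in each direction with the largest change (mean log2 CPM 3 or more), the 5 called most often, and the 3 highest and 3 lowest per kb. Genes named outside it were chosen after their values were seen. Promoters are those of the 4 genes called most often, with the tie between Mrpl16 and Mrps24 broken by the smaller adjusted p. The groups share replicate numbers, but same-numbered samples did not deviate together (mean correlation −0.01 over 99 pairs, 8 above 0.1), so the numbers were not taken as pairs.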

Additional observations from a re-analysis of the deposited data

Results flagged for a closer look

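In groups of 4 samples, 150 combinations of gene and group were examined for a sample that stood far from the others, and 8 did. Chance alone would give about 1 in 20. In Control cells at basal, replicate 1 stood above the other samples for Mrpl10 (215 CPM, others 95.5 to 114), Mrpl58 (175 CPM, others 103 to 109), Mrps11 (30.3 CPM, others 20.2 to 20.3) and Mrps35 (45.1 CPM, others 35.8 to 36.6). Mrpl10 was also high in FoxK1 KD insulin replicate 2 (128 CPM, others 97.6 to 102). Mrpl39 was low in FoxK2 KD insulin replicate 1 (17.6 CPM, others 25.3 to 25.5), and Mrps30 was low in FoxK1 KD basal replicate 3 (17.4 CPM, others 20.3 to 20.8). Mrpl9 was low in DKD basal replicate 2 (65.2 CPM, others 68.6 to 69.3), still above every insulin sample.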

How the results depend on the processing

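Of the counts of ribosomal protein genes called, 97 of the values under other settings stayed within 1.5 times the value reported and 20 did not. At an adjusted p below 0.25 the counts were 13 (FoxK1 KD at basal), 1 (FoxK2 KD at basal), 24 (DKD at basal), 3 (FoxK1 KD after insulin), 22, 41, 25 and 19 (insulin, Control first, then the knockdowns of FoxK1, of FoxK2 and of both), and 1 and 4 for the difference in the insulin effect of FoxK1 KD and DKD cells. With only the groups compared they were 0 (FoxK1 KD at basal), 2 (DKD at basal), and 2, 15 and 9 (insulin in Control, FoxK2 KD and DKD cells). limma-voom gave 1 for FoxK1 KD at basal. With genes of at least 1 count in any sample kept, 1 gene was called in each of FoxK2 KD at basal, FoxK1 KD after insulin, and the differences in the insulin effect of FoxK1 KD and DKD cells. The cause was not tested. With a replicate block the counts were 3, 0 and 6 for the knockdowns at basal, 7, 20, 10 and 5 for insulin and 0 elsewhere. Except at the 0.25 threshold, the share of all genes called was not counted for these settings or on leaving out samples. Whether the calls over all genes moved likewise is therefore not known.

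Leaving out single samples gave counts of 0 to 4 (FoxK1 KD at basal), 3 to 8 (DKD at basal), 5 to 11 (insulin in Control cells), 14 to 21 (FoxK1 KD), 6 to 9 (FoxK2 KD) and 1 to 5 (DKD), and 0 in the other comparisons. The median log2 fold change ranged from 0.01 to 0.11 for DKD at basal, 0.01 to 0.14 for the difference in the insulin effect of FoxK1 KD cells and −0.09 to 0.06 for that of DKD cells. Of the named genes, 302 values under other settings kept their call and 58 lost it, and 217 and 92 on leaving out samples, with none reversed. Mrpl9 kept its call with insulin in all 4 genotypes under each of these.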
